A study of Schizosaccharomyces pombe with 6 samples.

Results

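Ribosome biogenesis genes are followed here through small RNA libraries of the fission yeast Schizosaccharomyces pombe. The members are the protein-coding genes whose symbols start with utp, nop, noc or rrp, plus mdn1, that overlap at least 1 bp of a deposited small RNA peak. Of 60 genes with such symbols, 38 held a peak, out of 3519 protein-coding genes with a peak. Together they held 98 of the 11033 peaks. The 22 without a peak were noc12, noc201, nop4, nop8, nop12, nop52, nop56, rrp4, rrp7, rrp8, rrp9, rrp14, rrp15, rrp41, rrp1402, utp14, utp15, utp16, utp21, utp22, utp25 and utp502.

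The study sequenced RNA of 18 to 28 nt of cells in YES medium at an optical density of 0.5. Strain spb75, wild type by its label, gave 1 library after 8 hours at 37 °C, 1 after 7 days at 37 °C and 2 at 30 °C. Strain spb309, labelled dcr delta after Dicer, which dices double-stranded RNA into siRNA, gave 1 library at 30 °C. Wild-type strain spb80 gave 1 library at 30 °C. The labels give no further alleles or mating types, and they are silent on whether each library had its own culture; p-values therefore measure only the spread between these samples, which may be technical.

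A ribosome is built in the nucleolus around a long precursor rRNA. The small subunit (SSU) processome, a large particle that includes the U3 snoRNP and the Utp proteins, folds and cuts the part that becomes the small subunit. Noc, Nop and Rrp factors assemble the large subunit, snoRNPs guide rRNA modification, the exosome trims rRNA ends, and midasin, the product of mdn1, pulls assembly factors off the maturing large subunit. Genes of these factors are known in yeasts as a group whose mRNAs are made together in growing cells and drop for a time after stress. By role, 20 members belong to the SSU processome, 8 to large subunit assembly, 6 to the exosome and 2 to the snoRNP core. The remaining 2, rrp1 and rrp2, are annotated in S. pombe as a DNA helicase and a DNA translocase with SUMO-targeted ubiquitin ligase activity, and are members by symbol only.

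The peaks on which the results turn are printed from the ASM294v3 assembly on the strand of the gene, 5′ to 3′, because they show how short these sites are. Capitals mark the peak and lower-case letters the 10 flanking bases on each side; each window lies within coding sequence. The peak list has no strand, so the reads may come from either strand. Each printed peak except that of nop58 also overlaps a lncRNA gene. The mdn1 peak is the only member peak that passed a test in the main fits. With a pseudocount of 10 a further member peak passed after 8 hours, which made 2 of 62. In that fit 126 of all 8274 peaks passed higher and 14 lower, against 91 and 19 in the main fit. The nop58 peak had the lowest 8 hour ratio of its gene, and the utp5 peak is the higher of the 2 on utp5 in all 6 libraries. The rrp6 peak is the sole peak of that gene, and the utp3 peak had the highest 8 hour ratio of all tested member peaks.
mdn1, chrIII:1912321-1912378, + strand: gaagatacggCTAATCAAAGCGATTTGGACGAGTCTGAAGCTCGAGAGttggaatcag
nop58, chrI:878332-878413, + strand: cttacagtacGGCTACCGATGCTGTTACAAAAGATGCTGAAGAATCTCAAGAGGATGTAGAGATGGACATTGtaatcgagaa
utp5, chrI:2112465-2112581, + strand: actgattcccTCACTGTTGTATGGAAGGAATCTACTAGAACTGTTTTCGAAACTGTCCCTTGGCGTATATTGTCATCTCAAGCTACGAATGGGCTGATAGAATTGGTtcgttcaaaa
rrp6, chrI:612180-612234, + strand: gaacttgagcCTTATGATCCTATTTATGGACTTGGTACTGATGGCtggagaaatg
utp3, chrII:3376164-3376216, - strand: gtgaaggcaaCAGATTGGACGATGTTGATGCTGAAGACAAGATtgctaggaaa

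Before the comparisons, the deletion label was checked at dcr1. The dcr delta library held 295 normalised reads on dcr1, against 45.9, 61.4 and 70.1 in the 3 wild-type libraries at 30 °C, and the extent of the deletion is not in the labels. The centromeric lncRNA SPNCRNA.3679 held 445 normalised reads in the dcr delta library, against 65660 to 157800 in wild type at 30 °C. The lncRNA thus followed the label and the reads on dcr1 did not. Total reads over peaks ran from 5790803 in spb75 replicate 2 at 30 °C to 15723316 in spb75 replicate 1 at 30 °C. Protein-coding genes took 6.61% of these reads after 8 hours, 10.4% after 7 days and 13.8% in dcr delta, against 12.6% and 21.3% in spb75 at 30 °C and 13.6% in spb80.

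The members took a small part of each library. Their share of all reads over peaks was 0.0251% after 8 hours (95% Wilson interval 0.0242 to 0.0259%), 0.0384% after 7 days (0.0370 to 0.0399%) and 0.0428% in dcr delta (0.0413 to 0.0443%), against 0.0596% and 0.0658% in the spb75 libraries at 30 °C and 0.0426% in spb80 (0.0414 to 0.0439%). The share after 8 hours lay below both spb75 libraries at 30 °C, as did the share of all protein-coding reads. Within protein-coding reads the members held 0.379% after 8 hours and 0.370% after 7 days, against 0.391% ± 0.116 (SD, n = 2) in spb75 at 30 °C, so by this measure both heat libraries lay within the spread of the 30 °C libraries. Reads were amplified and carry no molecular identifiers, and the intervals therefore cover counting error only. A level in bulk RNA cannot tell fewer cells that carry a small RNA from less of it per cell.

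Levels of single members are given as normalised reads, which are reads summed over the peaks of a gene after trimmed-mean (TMM) scaling between libraries. The sum over all 38 was 4070 after 8 hours, 4106 after 7 days and 3649 in dcr delta, against 5811 and 4032 in spb75 at 30 °C and 4072 in spb80. Most of the gap between the 30 °C replicates came from rrp40, the gene of a cap subunit of the exosome. It held 1088 normalised reads after 8 hours, 1179 after 7 days and 562 in dcr delta, against 2835 and 1125 in spb75 at 30 °C and 1226 in spb80. Replicate 1 stood apart from the other 5 libraries for this gene, whose peaks all overlap a lncRNA gene as well. The 2 replicates at 30 °C differed by more than 1.5-fold in 15 of the 38 members, with ratios of replicate 1 over replicate 2 from 0.370 for nop9 to 9.96 for nop16.

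**Figure D1:**
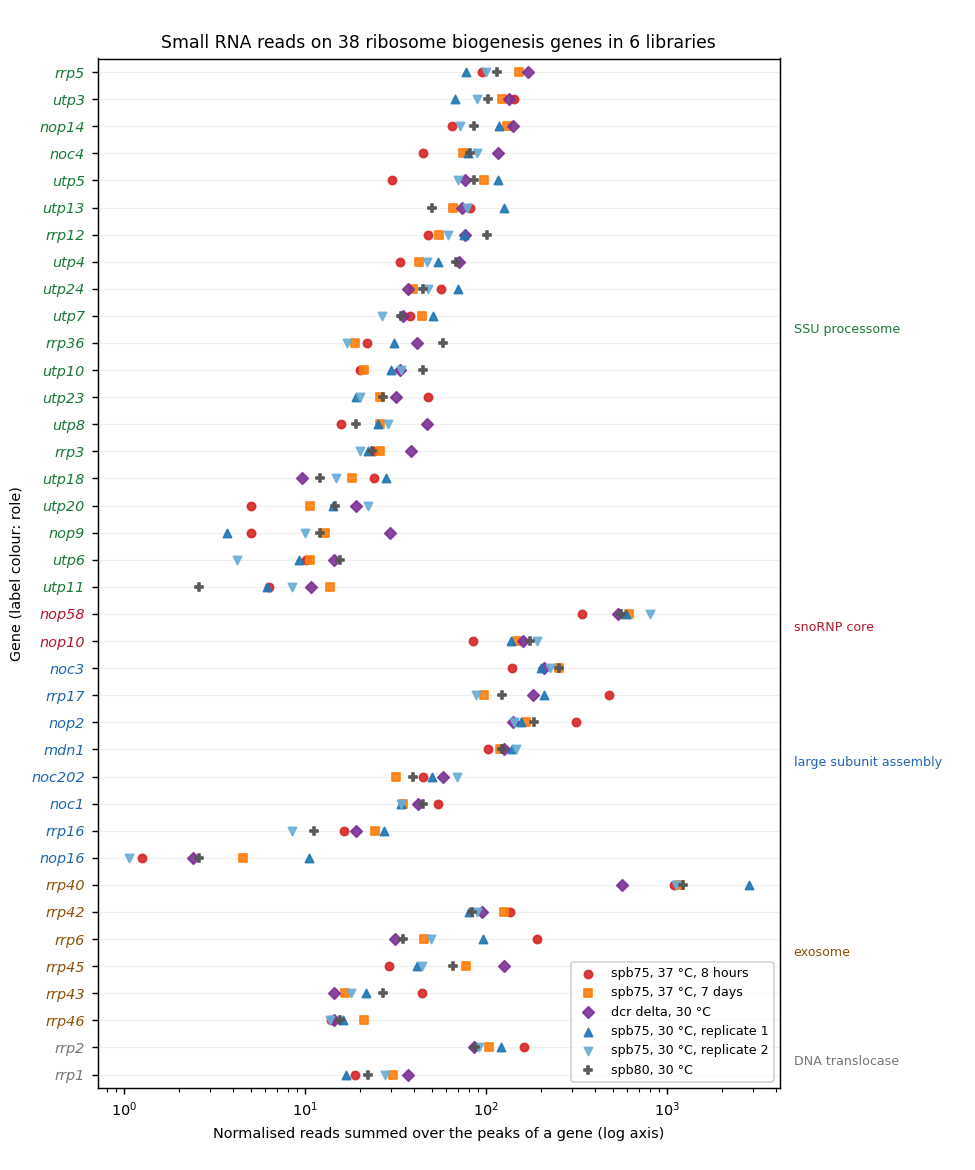
Normalised reads (log axis) of the 38 members in the 6 libraries, with rows grouped by role and ordered by mean level within a role; each symbol is 1 library. Levels ran from 1.06 normalised reads for nop16 to 2835 for rrp40, and for most genes the symbols of the 6 libraries overlapped.

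After normalising for gene length, rrp40 had the highest level, a mean over the 6 libraries of 1231 normalised reads per kb of gene. The box H/ACA snoRNP gene nop10 followed with 378 and the box C/D snoRNP gene nop58 with 281 per kb. At the other end, utp20, the gene of one of the largest SSU processome proteins, had 1.85 per kb, and mdn1, 14352 bp long, had 8.79 per kb. The snoRNP genes thus stood above all SSU processome genes by this scale, of which utp3 was highest with 57.5 per kb. The nop10 gene is only 394 bp long, and 1 of its 2 peaks extends past the gene, with all its reads counted.

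Heat for 8 hours was compared with 30 °C within strain spb75 by limma on log2 of normalised reads plus 1, with Benjamini-Hochberg (BH) adjustment over all 4428 genes tested and a threshold of 0.05. Of the 38 members 24 had enough reads to be tested, and 0 passed in either direction, against 2.8% of all genes tested (107 higher and 17 lower). At an unadjusted p under 0.05 there were 6 of the 24, or 25.0%, against 19.7% of all genes. The median log2 ratio of the tested members was -0.33, with 14 of 24 below 0, against 0.11 over all tested genes and 0.09 over protein-coding genes. With no filter on low genes the median of all 38 was -0.18, with 23 below 0. Single ratios took either sign, and the 2 libraries at 30 °C carry the only measure of error.

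The 20 SSU processome genes summed to 815 normalised reads after 8 hours, against 1025 and 860 in spb75 at 30 °C. Of the 11 tested, 7 ratios were below 0 and 4 above, with a median of -0.27. The lowest was that of utp5, the gene of a subunit that in budding yeast joins the precursor rRNA early. Of the 2 utp5 peaks the one printed above also overlaps the lncRNA SPNCRNA.795. The utp5 gene held 30.2 normalised reads after 8 hours, 97.3 after 7 days and 76.2 in dcr delta, against 116 and 69.8 in spb75 at 30 °C and 85.7 in spb80. Its level after 8 hours was the lowest of the 6, with a fitted log2 ratio to 30 °C of -1.55 (SE 0.47) that missed the limma threshold (BH-adjusted p = 0.0950).

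The noc4 gene, whose product works with Nop14 on the small subunit, held 44.7 normalised reads after 8 hours, 74.5 after 7 days and 117 in dcr delta, against 79.9 and 88.9 in spb75 at 30 °C and 81.3 in spb80. Its 8 hour log2 ratio was -0.90 (SE 0.43; limma BH-adjusted p = 0.268), with 8 hours lowest of the 6 libraries. On the other side stood utp3, which encodes a U3 snoRNP-associated protein and whose 3 peaks all also lie on a second gene. It held 143 normalised reads after 8 hours, 123 after 7 days and 133 in dcr delta, against 67.6 and 88.9 in spb75 at 30 °C and 102 in spb80. All of the first 3 libraries lay above the 3 wild-type libraries at 30 °C, but the 8 hour ratio of 0.88 (SE 0.41) gave a limma BH-adjusted p of 0.257.

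The rRNA processing gene utp23 held 47.8 normalised reads after 8 hours, 25.8 after 7 days and 31.8 in dcr delta, against 19.2 and 20.1 in spb75 at 30 °C and 26.8 in spb80. Its 8 hour ratio was 1.24 (SE 0.61; limma BH-adjusted p = 0.285), from 38 reads after 8 hours and 31 and 19 reads at 30 °C. No other library reached the 8 hour level of this gene. Its sole peak also overlaps the lncRNA SPNCRNA.1250. The 7 other tested SSU processome genes had 8 hour ratios between -0.59 for utp4 and 0.10 for rrp5.

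Both snoRNP core genes had their lowest level after 8 hours. The product of nop58 holds the box C/D snoRNAs that guide rRNA methylation, and that of nop10 belongs to the box H/ACA particles that guide pseudouridylation. The nop58 gene held 339 normalised reads after 8 hours, 616 after 7 days and 537 in dcr delta, against 594 and 807 in spb75 at 30 °C and 557 in spb80. The nop10 gene held 85.0 after 8 hours, 148 after 7 days and 159 in dcr delta, against 137 and 190 in spb75 at 30 °C and 174 in spb80. Of the 2 nop10 peaks 1 also overlaps the lncRNA SPNCRNA.2731. The 8 hour log2 ratios were -1.03 (SE 0.38; limma BH-adjusted p = 0.167) for nop58 and -0.92 (SE 0.40; BH-adjusted p = 0.225) for nop10. For each gene 8 hours lay below the other 5 libraries, and neither ratio passed.

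The large subunit genes divided evenly, with 3 of 6 tested ratios on each side of 0. The rRNA exonuclease gene rrp17 had the highest ratio of any member. It held 476 normalised reads after 8 hours, 97.3 after 7 days and 182 in dcr delta, against 210 and 87.8 in spb75 at 30 °C and 123 in spb80. The 8 hour library was the highest, but the 2 libraries at 30 °C already differed by 2.39-fold, and the ratio of 1.8 (SE 0.48) gave a limma BH-adjusted p of 0.0682. It passed with no filter on low genes (BH-adjusted p = 0.00344) and when the 7 day library was left out of the fit (0.0353). The fit with no filter borrows even more of its variance from other genes than the main fit (71.2 against 11.0 prior degrees of freedom).

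The gene of the rRNA methyltransferase Nop2 held 315 normalised reads after 8 hours, 167 after 7 days and 142 in dcr delta, against 157 and 142 in spb75 at 30 °C and 184 in spb80. Its 8 hour ratio was 1.07 (SE 0.37; limma BH-adjusted p = 0.135). All 5 nop2 peaks also lie on spt16, the gene of a histone chaperone, and without strand their reads cannot be told apart. The noc3 gene, whose product moves precursors of the large subunit, held 139 normalised reads after 8 hours, 254 after 7 days and 210 in dcr delta, against 200 and 227 in spb75 at 30 °C and 253 in spb80. Its 8 peaks all overlap SPBC887.02, and its 8 hour ratio was -0.61 (SE 0.37; BH-adjusted p = 0.378). The 8 hour library was the highest of the 6 for nop2 and the lowest for noc3.

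Over the whole gene, mdn1 held 103 normalised reads after 8 hours, 120 after 7 days and 126 in dcr delta, against 138 and 147 in spb75 at 30 °C and 122 in spb80. Its lowest library was that of 8 hours, and the ratio was -0.47 (SE 0.38; limma BH-adjusted p = 0.534).

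Among the 4 tested exosome genes, 2 ratios lay above 0 and 2 below. The gene of the nuclear exoribonuclease Rrp6 held 191 normalised reads after 8 hours, 45.6 after 7 days and 31.2 in dcr delta, against 96.7 and 49.7 in spb75 at 30 °C and 34.6 in spb80. The 8 hour library was the highest, with a ratio of 1.45 (SE 0.48; limma BH-adjusted p = 0.116), and the gene passed with no filter on low genes (0.0459). Its sole peak also overlaps the lncRNA SPNCRNA.2261. The rrp40 ratio after 8 hours was -0.71 (SE 0.52; BH-adjusted p = 0.475), and it was -0.05 without spb75 replicate 1 and -1.38 without replicate 2.

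**Figure D2:**
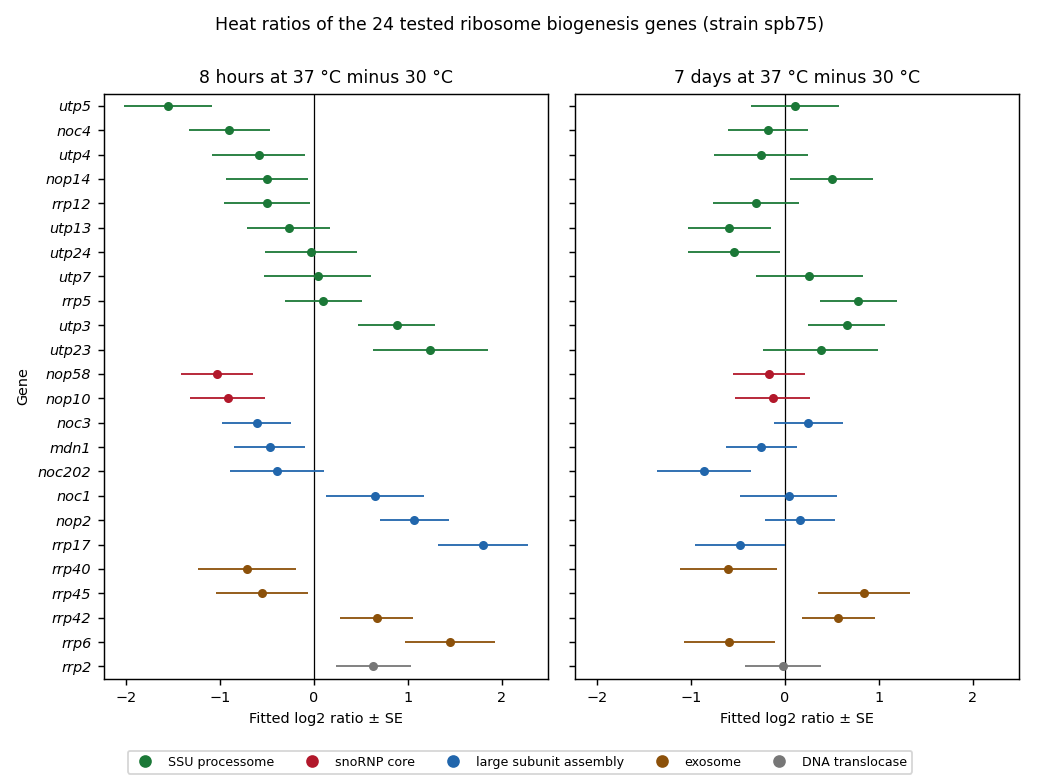
Fitted log2 ratio ± SE of the 24 tested members after 8 hours (left) and 7 days (right) at 37 °C, each against the 2 spb75 libraries at 30 °C; colour gives the role. Ratios ran from -1.55 for utp5 to 1.8 for rrp17 after 8 hours and from -0.86 for noc202 to 0.84 for rrp45 after 7 days, and none passed the test.

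After 7 days at 37 °C, 0 of the 24 tested members passed the limma test, against 1.31% of all genes, and 0 reached an unadjusted p under 0.05, against 12.1% of all genes. The median log2 ratio was -0.07, against 0.01 over all genes. The 2 heat comparisons share the 30 °C libraries, so each is described on its own. The exosome ring gene rrp45, with 3 of its 4 peaks also on the gene rnc1, had the highest ratio. It held 77.5 normalised reads after 7 days, 29.0 after 8 hours and 126 in dcr delta, against 41.5 and 44.4 in spb75 at 30 °C and 65.8 in spb80. The 7 day library lay above both spb75 libraries at 30 °C and the 8 hour library below them, with a 7 day ratio of 0.84 (SE 0.49; BH-adjusted p = 0.553).

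Rrp5 takes part in cutting the precursors of both subunits, and its gene held 152 normalised reads after 7 days, 94.4 after 8 hours and 171 in dcr delta, against 77.2 and 100 in spb75 at 30 °C and 115 in spb80. Of the 2 rrp5 peaks 1 also lies on the gene rpl101. Another exosome ring gene, rrp42, has 3 of its 6 peaks on the gene bag101 as well. It held 126 after 7 days, 135 after 8 hours and 95.4 in dcr delta, against 80.6 and 89.4 in spb75 at 30 °C and 83.9 in spb80. Both genes lay above the spb75 libraries at 30 °C after 7 days, with ratios of 0.78 for rrp5 and 0.57 for rrp42 (limma BH-adjusted p = 0.494 and 0.650). The nop14 gene, which encodes a U3 snoRNP protein, has 4 peaks, of which 3 also lie on a second gene. It held 131 after 7 days, 64.8 after 8 hours and 140 in dcr delta, against 118 and 71.9 in spb75 at 30 °C and 85.7 in spb80. Its 7 day ratio was 0.50 (BH-adjusted p = 0.724), and that of utp3 was 0.66 (0.576).

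The lowest 7 day ratio, -0.86 (SE 0.50; limma BH-adjusted p = 0.547), was that of noc202, whose product is annotated to the Noc2-Noc3 complex. The sole noc202 peak also lies on the gene SPAC1B3.08. The noc202 gene held 31.9 normalised reads after 7 days, 44.7 after 8 hours and 57.6 in dcr delta, against 50.2 and 68.8 in spb75 at 30 °C and 39.4 in spb80. The U3 snoRNP-associated gene utp13 held 65.4 after 7 days, 81.8 after 8 hours and 73.2 in dcr delta, against 125 and 78.3 in spb75 at 30 °C and 50.2 in spb80. All 3 utp13 peaks also lie on the gene SPCC16A11.03C. After 7 days noc202 lay below all 3 wild-type libraries at 30 °C, and utp13 below both of spb75 but not below spb80. The rRNA endonuclease gene utp24 held 39.5 after 7 days, 56.6 after 8 hours and 37.2 in dcr delta, against 70.0 and 47.6 in spb75 at 30 °C and 44.6 in spb80. Of the 3 utp24 peaks 2 also lie on the gene bem46. The 7 day ratios were -0.59 for utp13, -0.54 for utp24, -0.59 for rrp6 and -0.60 for rrp40, with limma BH-adjusted p of 0.674, 0.724, 0.692 and 0.722. The rrp40 ratio turned to 0.07 without spb75 replicate 1.

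The heat libraries were also set against each other. The contrast of 7 days with 8 hours tested the same 24 members and called 0 of them, against 0.113% of all genes, with 4 members (16.7%) at an unadjusted p under 0.05, against 10.5% of all genes. These 4 were rrp17 with a log2 ratio of -2.28, rrp6 with -2.04, utp5 with 1.66 and rrp45 with 1.39 (limma BH-adjusted p = 0.107, 0.146, 0.241 and 0.379). With no filter on low genes, rrp17 and rrp6 passed, lower after 7 days than after 8 hours. The median of the members was 0.15, against -0.09 over all genes.

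**Figure D3:**
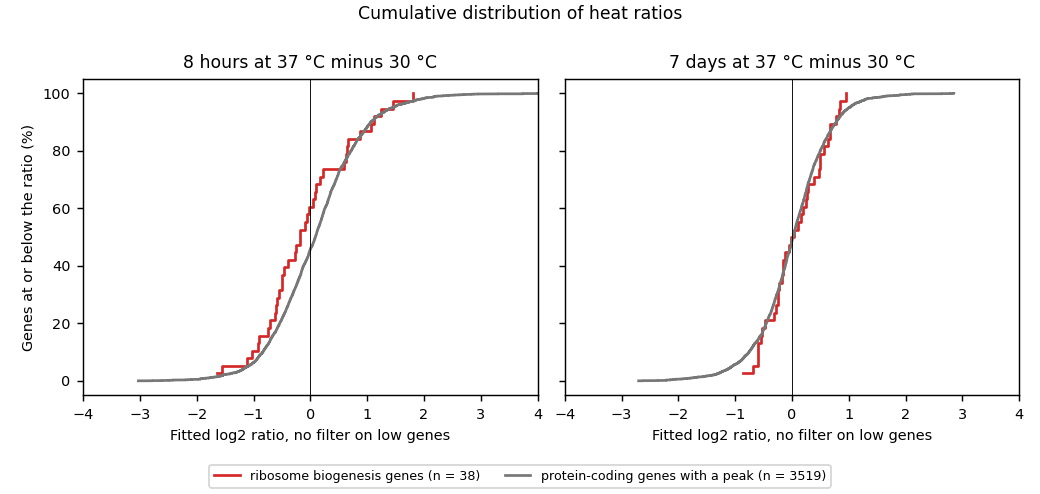
Cumulative share (%) of genes at or below a given fitted log2 ratio, with no filter on low genes, for the 38 members and for all 3519 protein-coding genes with a peak, after 8 hours (left) and 7 days (right). The members' curve lies to the left of the other around 0 after 8 hours, with medians of -0.18 and 0.09, and near it after 7 days, with medians of 0.01 and 0.02.

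Counts over all 38 members, which need no filter, were read against all protein-coding genes with a peak. After 8 hours 15 members lay below both spb75 libraries at 30 °C (39.5%, against 34.8% of protein-coding genes) and 11 above both (28.9%, against 42.5%). After 7 days 11 lay below both (28.9%, against 35.1%) and 15 above both (39.5%, against 36.3%). In 7 members both heat libraries lay below the 30 °C libraries, and in 7 both lay above, which is 18.4% in each case, against 19.3% and 22.9% of protein-coding genes. The member shares differed most from those of other genes in the count above both libraries after 8 hours, for which no test was made.

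A further 14 members fell under the filter and have no heat test in the main gene fit. They were the SSU processome genes nop9, rrp3, rrp36, utp6, utp8, utp10, utp11, utp18 and utp20, the exosome genes rrp43 and rrp46, the large subunit genes nop16 and rrp16, and rrp1. The utp20 gene held 4 reads after 8 hours and 7 after 7 days, against 23 and 21 in spb75 at 30 °C. The rrp43 gene held 35 reads after 8 hours and 11 after 7 days, against 35 and 17 in spb75 at 30 °C. In normalised reads utp20 lay below both 30 °C libraries in each heat library, and rrp43 lay above both after 8 hours and below both after 7 days. With no filter 0 of the 14 passed by limma after 8 hours, with 1 at an unadjusted p under 0.05, and the ratios ran from -1.64 to 1.12. Of all 5905 genes 375 passed in that fit after 8 hours, and 19.2% had such a p. After 7 days 0 of the 14 passed and 0 had such a p, against 155 and 12.1% of all genes. In 7 of the 14 genes 1 peak was tested. After 8 hours 0 of these peaks passed and 0 had an unadjusted p under 0.05, against 1.33% and 15.9% of all peaks. The lowest of the 7 ratios was that of utp20, -1.68 (SE 0.80; BH-adjusted p = 0.322).

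Genes could be divided further by peak. Of the 98 member peaks 62 were tested in the heat comparisons by limma with BH adjustment over 8274 peaks, and 1 passed after 8 hours, against 1.33% of all peaks. At an unadjusted p under 0.05 there were 12 of 62 after 8 hours (19.4%, against 15.9% of all peaks) and 1 of 62 after 7 days (1.61%, against 9.52%). After 7 days 0 member peaks passed, against 0.0483% of all peaks. In the contrast of 7 days with 8 hours 0 member peaks passed, against 0.326% of all peaks; unadjusted, 13 of 62 (21.0%) had a p under 0.05, against 10.9%. The peak that passed was the mdn1 peak printed above, 38 bp wide (chrIII:1912331-1912368) in coding sequence, 82.7% of the way along the gene. It held 2.5 reads after 8 hours, 12 after 7 days and 13.5 in dcr delta, against 47 and 28 reads in spb75 at 30 °C and 16 in spb80. The 8 hour library was far below the rest.

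In normalised reads per peak of mean width, that mdn1 site had 6.06 after 8 hours, 33.8 after 7 days and 29.0 in dcr delta, against 55.6 and 53.9 in spb75 at 30 °C and 26.0 in spb80. Its log2 ratio after 8 hours was -2.98 (SE 0.66; limma BH-adjusted p = 0.0425). With the 2.5 reads after 8 hours rounded up to 3, the spb75 libraries at 30 °C together were 7.55-fold higher than the 8 hour library. The Clopper-Pearson interval on these rounded reads, for counting error, was 2.49 to 37.4. Rounding up lowers this fold. The call was lost when the third wild-type library, spb80, joined the 30 °C arm (ratio -2.63, BH-adjusted p = 0.187), and it was also lost with no filter (0.0880), with median-of-ratios scaling (0.0558) and without the 7 day library (0.0547). The peak overlaps the lncRNA SPNCRNA.7545 as well.

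The other 6 mdn1 peaks did not move as one. The neighbouring site on the same lncRNA, just upstream, had 8.62 normalised reads after 8 hours, 22.6 after 7 days and 43.7 in dcr delta, against 24.4 and 28.2 in spb75 at 30 °C and 40.6 in spb80. It was too low for a heat test. The last mdn1 peak, in its UTR and shared with the gene hmt1, had 62.4 after 8 hours, 11.9 after 7 days and 32.7 in dcr delta, against 25.9 and 24.4 in spb75 at 30 °C and 28.8 in spb80. The last peak was thus highest after 8 hours (log2 ratio 1.28, limma BH-adjusted p = 0.394), where the called peak was lowest.

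The nop58 gene gives the clearest view of 1 member, since its 8 peaks all lie in coding sequence and touch no second gene. All 8 had 8 hour ratios below 0, from -1.54 to -0.42, and 7 of 8 lay below both spb75 libraries at 30 °C; none passed. The peak printed above had 72.8 normalised reads after 8 hours, 132 after 7 days and 147 in dcr delta, against 227 and 200 in spb75 at 30 °C and 135 in spb80. Its 8 hour ratio was -1.54 (SE 0.55; limma BH-adjusted p = 0.180). After 7 days the ratios of the 8 peaks ran from -0.68 to 0.72. The peaks of 1 gene share their transcript and are no replicates of each other.

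**Figure D4:**
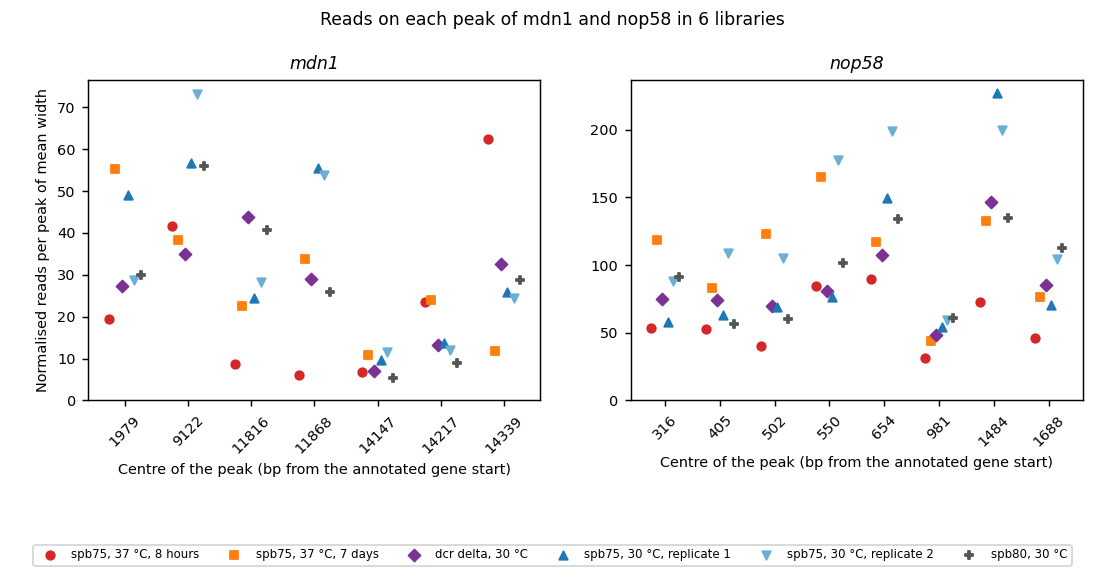
Normalised reads per peak of mean width (linear axis) on the 7 mdn1 and 8 nop58 peaks in the 6 libraries, placed in order of distance from the annotated gene start; each symbol is 1 library. After 8 hours the level was the lowest of the 6 on 7 of the 8 nop58 peaks, and on mdn1 it has 6.06 at the called peak and 62.4 at the last.

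In utp3 and rrp17 the peaks of a gene differed in their 8 hour ratios. All 3 utp3 peaks also lie on a second gene, the one printed above on the lncRNA SPNCRNA.6100. The utp3 peak printed above held 53 reads after 8 hours, 3 after 7 days and 5.67 in dcr delta, against 10 and 15 in spb75 at 30 °C and 9 in spb80, with an 8 hour ratio of 2.74 (SE 0.71; limma BH-adjusted p = 0.0712). The utp3 peak shared with the gene nem1 had an 8 hour ratio of 0.67 and lay above both spb75 libraries at 30 °C, and that at the start of the gene had -0.26. The UTR peak of rrp17 that touches no second gene had 851 normalised reads after 8 hours, 107 after 7 days and 271 in dcr delta, against 363 and 88.2 in spb75 at 30 °C and 173 in spb80. Its 8 hour ratio was 2.24 (SE 0.71; BH-adjusted p = 0.137), and that of the other rrp17 peak was 0.99 (BH-adjusted p = 0.394). Most rrp40 reads came from 1 UTR peak, with 1035 normalised reads per peak of mean width after 8 hours and 1070 after 7 days, against 2732 and 988 in spb75 at 30 °C. All 3 rrp40 peaks also lie on the lncRNA SPNCRNA.2521.

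In dcr delta 0 of the 28 tested members passed the limma test, against 1.87% of all genes. At an unadjusted p under 0.05 there were 2 (7.14%), against 7.72% of all genes. Of 68 tested member peaks 0 passed, against 0.882% of all peaks; unadjusted, 2 (2.94%) had a p under 0.05, against 6.31%. The members' median log2 ratio was 0.07, against 0.01 over all genes. The 2 genes, a share near that of all genes, belong to the exosome. The rrp40 gene, with its values given above, was lowest in dcr delta (ratio -1.49, SE 0.54, BH-adjusted p = 0.586), and rrp45 was highest there (1.33, SE 0.42, BH-adjusted p = 0.470). Over all 38 members, 13 lay above all 3 wild-type libraries at 30 °C in dcr delta (34.2%, against 30.3% of protein-coding genes) and 8 below all 3 (21.1%, against 25.0%). The 13 included 10 of the 20 SSU processome genes, some from few reads, such as utp11 with 9 reads in dcr delta. Another 2 of the 20 lay below all 3 wild-type libraries. Of the 14 SSU processome genes tested, 8 ratios were above 0 and 6 below, and 0 had an unadjusted p under 0.05 by limma. The summed level of the 20 was 1207 normalised reads in dcr delta, against 1025 and 860 in spb75 and 997 in spb80 at 30 °C.

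The wild-type strains spb80 and spb75 were compared at 30 °C to show the size of a difference between strains. Of 25 tested members 0 passed, against 0.294% of all genes, with 1 (4.0%) at an unadjusted p under 0.05, against 6.32% of all genes. This was the rRNA processing gene rrp36, which held 57.7 normalised reads in spb80, against 31.0 and 17.1 in spb75 (log2 ratio 1.29, limma BH-adjusted p = 0.783). The sole rrp36 peak also overlaps the lncRNA SPNCRNA.3156. The members' ratios between strains ran from -0.98 for rrp6 to 1.29 for rrp36. The ranges were -1.55 to 1.8 for heat of 8 hours, -0.86 to 0.84 for heat of 7 days and -1.49 to 1.33 for dcr delta.

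Features that the choice of members did not use were described without a test. The median GC content of the member peaks was 38.1%, against 38.8% over peaks on protein-coding genes, and the median width was 48.5 bp, against 51 bp. Coding sequence held 61 of the 98 peaks (62.2%, against 58.9%), and the last 20% of the gene held 44 (44.9%, against 38.4%). Members had a median of 2 peaks per gene, against 3, and 15 members had only 1. Peaks that also lie on a second protein-coding gene made up 40.8%, against 31.4%. Peaks on a lncRNA gene but on no second protein-coding gene made up 21.4%, against 30.2%. A peak on both kinds of gene was counted only with the former, so the shares depend on each other.

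Median 8 hour ratios were set out by the sharing of peaks, without a test. In 10 members no peak touched a second gene, in 17 every peak did, and in 11 some did. The tested members with every peak shared had a median 8 hour ratio of 0.63 (4 of 9 below 0). Those with no shared peak had -0.50 (3 of 5 below 0), and those with some had -0.48 (7 of 10 below 0). Counted on unshared peaks alone, 15 members could be tested and 12 had 8 hour ratios below 0, with a median of -0.38, against -0.09 over protein-coding genes and 0.03 over all genes; 0 of the 15 and 0 of all 1939 genes tested in this way passed by limma, with 3 of the 15 and 306 of the 1939 (15.8%) at an unadjusted p under 0.05. The part of the neighbouring genes in the member values was not tested.

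Promoters were searched from 250 bases before to 50 after the annotated gene start, on both strands. The letters AAAATTTT, a run rich in A and T, occurred in 3 of the 38 (7.90%), against 7.80% of all 5113 protein-coding genes. The letters GATGAG occurred in 4 (10.5%), against 8.59%, and CAGTCACA, the core of the HomolD box of ribosomal protein genes, in 0, against 2.68%. These counts describe letters in a window and nothing more.

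Other genes of the pathway were taken from a list by symbol. Of 109 symbols listed, 91 are annotated in S. pombe, 62 held a peak and 50 were tested in the heat comparisons. These include drs1 and lsg1, whose symbols name unrelated genes in this species; without them 60 held a peak and 48 were tested. By limma 0 of the 48 passed in either direction after 8 hours or after 7 days, against 2.8% and 1.31% of all genes. At an unadjusted p under 0.05 there were 8 after 8 hours (16.7%, against 19.7% of all genes) and 1 after 7 days (2.08%, against 12.1%). The medians of the 48 were -0.01 and 0.02. After 8 hours the lowest ratios were -1.92 for sof1, a processome gene, and -1.75 for nip7, a large subunit gene (BH-adjusted p = 0.0865 and 0.0728), and the highest 1.35 for mpp10 and 1.20 for bms1, both of the processome (0.239 and 0.169). With sof1 at 11.3 normalised reads after 8 hours, against 53.3 and 39.1 in spb75 at 30 °C, the 8 hour library lay below both. After 7 days the ratios ran from -1.40 for the kinase gene rio1 and -0.85 for the snoRNP gene snu13 to 0.72 for ebp2 and 0.78 for the export adaptor gene nmd3, with BH-adjusted p of 0.285, 0.411, 0.576 and 0.676.

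RNA polymerase I makes the precursor rRNA. Among its genes 0 of 11 tested passed by limma after 8 hours, against 2.8% of all genes. Of the 11, 1 had an unadjusted p under 0.05 (9.09%, against 19.7% of all genes), and the median ratio was -0.30. Ribosomal protein genes, the end of the pathway, had ratios below 0 in 135 of 138 after 8 hours, with a median of -0.47. By limma 0 of the 138 passed, and 8 had an unadjusted p below 0.05 (5.8%, against 19.7% of all genes). The median after 7 days was -0.12. The biogenesis members were thus more divided in sign after 8 hours, with 14 of 24 below 0, a difference that was not tested.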

How the data were processed

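Small RNA of 6 libraries was analysed from 1 deposited list of 11033 peaks. CASAVA 1.8, Bowtie 0.9.9.1 and MACS are named by the submitters' processing notes; no source used here gives the genome build. Worked out from the values, the deposited signal of a peak is its reads over its width, scaled by the average width of 71.0 bp; an 8 is added in the columns of spb80 and dcr delta, and each read counts 1.48 in the dcr delta column. With these terms removed, 73.8 to 92.4% of a library's values lay within 0.01 of a whole read.

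Peak positions were set on the RefSeq ASM294v3 annotation. There 212 of 243 genes of tRNA, snoRNA and snRNA carried a peak, and 38 to 60 did once peaks were moved by 200, 500 or 2000 bp; smaller offsets were not tested. The wild-type column at 30 °C that names no strain and no replicate number was taken as spb80, whose title has no number. Reads were summed per gene, shared peaks counting for each gene. The lowest 25% of genes were dropped, and limma 3.58.1 (R 4.3.3, trend in the prior variance, 2-sided) was run on log2 of TMM-scaled reads plus 1 (trimming 30% and 5%), with BH adjustment. Each heat test against 30 °C has 1 library on 1 side, and 7 days against 8 hours has 1 on each side. The heat gene fit has 1 residual and 11.0 prior degrees of freedom, so the variance is mostly borrowed from other genes. The dcr delta gene fit has 2 and 4.59. The peak fits have 1 and 15.3 for heat and 2 and 6.61 for dcr delta. Code was tested on simulated data.

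The members, roles, lists and tests were chosen with earlier results of these data known. Members named with values are those called, the 5 highest and 5 lowest ratios of each heat comparison, the 5 highest levels, the 3 with most peaks, and mdn1; genes outside this rule were chosen after their values were seen. Alternatives were other scalings, filters, pseudocounts, arms and left-out libraries; those for the mdn1 peak were added after seeing the data.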

Additional observations from a re-analysis of the deposited data

How the results depend on the processing

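The absence of member calls rests on few libraries, and counts over all genes depended on the settings. After 8 hours 124 genes passed, against 375 with no filter, 200 in a separate fit without the 7 day library, and 0 by limma with total-read scaling, median-of-ratios scaling, unshared peaks, 3 wild-type libraries or all 6 libraries in the fit (162 to 928 at an unadjusted p under 0.05). Members called after 8 hours were 3 of 38 with no filter (rrp17, rrp6, utp5), against 375 of all 5905 genes. In the separate fit 1 of 26 members was called (rrp17), against 200 of all 4428 genes, and in the main fit 0. After 7 days 58 genes passed, against 155 with no filter, 25 with scaling by protein-coding reads (15 higher and 10 lower, against 18 and 40) and 0 under the same 5 settings (89 to 513 unadjusted). For 7 days against 8 hours 5 passed, against 149 with no filter, 3 with protein-coding reads or a pseudocount of 10, and 0 with total reads, median of ratios, unshared peaks or 3 wild-type libraries (48 to 419 unadjusted); 2 members (rrp17, rrp6) passed with no filter. In dcr delta 83 passed, against 3 on unshared peaks and 73 to 125 with 1 wild-type library left out, 125 without spb80.

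Scaling by total reads moved the median of all genes after 8 hours to -0.69 and that of the members to -1.22, against -0.33; the members' median became 0.81 for 7 days against 8 hours (all genes 0.58) and 0.52 in dcr delta (all genes 0.46). Scaling by protein-coding reads moved the median of all genes after 8 hours to 0.32 and that of the members to -0.12. On unshared peaks the members' median for 7 days against 8 hours was 0.69. Without 1 of the 30 °C replicates the members' median ran from -0.42 to -0.07 after 8 hours and from -0.15 to 0.11 after 7 days; such fits have no residual degrees of freedom and give no test. The rrp17 ratio after 8 hours ran from 1.18 to 2.42, the rrp40 ratio from -1.38 to -0.05, and the rrp40 ratio after 7 days from -1.27 to 0.07. Of the other values for named members, 195 with a test kept their direction and side of the threshold, and 38 without a test moved by less than their SE. Those of the mdn1 peak that lost its call stand in the report. The cause of these changes was not tested. No paired analysis was possible because the groups compared share fewer than 2 replicate numbers.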
